A study of Homo sapiens with 5 samples.

Results

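The loci described here are those of 5 genes that p53 is known to act on, MIR34A, IER5, ATF3, GML and SPATA18, with every p53 or JMJD3 binding site listed within 60 kb of each gene's start. They hold 44 of the 43443 sites listed in all. Of these, 5 come from the p53 list of untreated cells, 7 from the p53 list of irradiated cells, 2 from the JMJD3 list of untreated cells and 30 from the JMJD3 list of irradiated cells. MIR34A and IER5 were chosen by the width of their p53 sites after ionizing radiation (IR), which are among the widest listed, and the other 3 genes because the paper names them. The width of the p53 sites and the presence of p53 at these loci therefore describe the choice and are not findings. The paper names the GML and ATF3 elements and the SPATA18 promoter in connection with p53 and JMJD3 together, so JMJD3 there after IR is in part fixed by the choice too. The start positions, on the hg18 assembly of the human genome, are approximate and were taken as given. They are 9164850 on chromosome 1 for the host transcript of MIR34A, 179324260 on chromosome 1 for IER5, 210805300 on chromosome 1 for ATF3, 143913220 on chromosome 8 for GML and 52612260 on chromosome 4 for SPATA18. Distances are negative toward lower coordinates.

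Binding was mapped by sequencing of immunoprecipitated chromatin (ChIP-seq) in BJ cells, human foreskin fibroblasts that express telomerase and divide without limit. Cells were untreated, or were exposed to 10 Gy of IR and harvested 6 h later by the sample labels (the paper's text gives a slightly shorter time), and chromatin was collected with the p53 antibody DO-1 or with a rabbit antibody against JMJD3. Each of the 4 combinations had 1 library, so that differences between untreated and irradiated cells could not be checked in replicates and were not tested. A site is a stretch of the genome where the authors' peak detection found more tags than in an IgG control. The lists give positions only, with no height and no read number, so depth is unknown and a site that is not listed is not shown to be unbound.

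p53 is a transcription factor that DNA damage stabilizes, and as a tetramer it binds response elements at gene starts, within genes and far from them. JMJD3 (KDM6B) removes methyl groups from lysine 27 of histone H3 and has no known DNA-binding domain of its own. The 5 genes carry different arms of the stress response. MIR34A encodes a microRNA that represses cell cycle and survival genes. ATF3 encodes a stress-induced transcription factor of the bZIP family. IER5 encodes an immediate early protein linked to the heat shock response. SPATA18 (Mieap) encodes a protein of mitochondrial quality control, and GML encodes a GPI-anchored protein of the LY6 family.

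The product of the MIR34A locus is shown here because the p53 site lies at the start of the host transcript and not at the microRNA itself. In RefSeq (GRCh38.p14) the hairpin lies 30.6 kb downstream of the host start, on the minus strand. Capitals mark the seed, bases 2 to 8, which pairs with target RNAs. The table used is not complete, and the microRNAs printed beside miR-34a-5p are those found in it with the same seed, not the whole seed family. miR-34a-3p, from the other arm of the hairpin, has a different seed.
hsa-miR-34a-5p: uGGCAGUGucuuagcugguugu
hsa-miR-449a: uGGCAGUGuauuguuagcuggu
hsa-miR-449b-5p: aGGCAGUGuauuguuagcuggc
hsa-miR-34a-3p: cAAUCAGCaaguauacugcccu

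The 250 bases before the RefSeq start are printed for the 2 loci whose widest p53 site lies at the start, the MIR34A host gene (MIR34AHG, chr1:9182339-9182588, minus strand) and SPATA18 (chr4:52051054-52051303, plus strand), both 5′ to 3′ on GRCh38.p14. They were matched by symbol, and these GRCh38 windows were not placed on hg18, so neither window nor its matches are shown to lie in a listed site. The SPATA18 window runs upstream of the start, whereas the widest p53 site there was listed downstream of the start position used here. Capitals mark matches to the 10-base p53 consensus with at most 1 mismatch outside its fixed C and G, a motif that reads the same on both strands.
MIR34AHG: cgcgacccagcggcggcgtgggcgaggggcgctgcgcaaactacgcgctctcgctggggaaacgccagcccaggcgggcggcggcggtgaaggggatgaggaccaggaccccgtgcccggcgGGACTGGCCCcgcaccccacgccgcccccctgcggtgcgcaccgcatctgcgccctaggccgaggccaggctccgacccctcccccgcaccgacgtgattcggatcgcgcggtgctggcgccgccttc
SPATA18: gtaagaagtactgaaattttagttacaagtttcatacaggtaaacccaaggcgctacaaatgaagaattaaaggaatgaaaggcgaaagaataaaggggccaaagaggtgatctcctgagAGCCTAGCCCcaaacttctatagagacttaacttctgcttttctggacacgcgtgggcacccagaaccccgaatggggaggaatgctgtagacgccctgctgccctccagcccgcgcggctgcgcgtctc
Each window holds 1 such match, which is common, since 39.3% of the 35116 promoter windows of this length in the table hold at least 1. None of the windows of MIR34AHG, SPATA18, IER5 or ATF3 holds an exact match, as 5.57% of all windows do, and none holds a pair of matches with 0 to 13 bases between them, as 1.57% do. GML has no entry in that table.

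Every one of the 5 loci had a p53 site both before and after IR. In untreated cells each locus had 1 p53 site, at chr1:9164536-9165166 for MIR34A, chr1:179370520-179371195 for IER5, chr1:210836370-210836735 for ATF3, chr8:143894054-143894457 for GML and chr4:52612614-52613086 for SPATA18. In irradiated cells MIR34A, ATF3 and GML again had 1, and IER5 and SPATA18 had 2. When the genome is cut into 25310 tiles of 120 kb, the span of these windows, 1.38% of tiles hold a p53 site of untreated cells and 11.3% one of irradiated cells, but the loci were chosen for p53 and nothing is read from that contrast. Among the tiles with a p53 site after IR, 12.0% hold at least 2. The choice by p53 after IR does not fix the state before IR directly. Of the 7 p53 sites after IR, 5 coincided with a p53 site listed before IR, against 10.6% of all 3232 p53 sites after IR (exact 95% interval 9.57 to 11.7%). By the shared 1 bp the count is 5, and it was 3 of 7 when 50% of the site had to be covered and 3 of 5 with a window of 30 kb. The 10.6% was taken by the shared 1 bp, and no share over all p53 sites after IR was taken with 50% covered. Wide sites of that list were mostly listed before IR too: among the 79 that are at least 673 bp, the narrowest width among the widest sites of the 5 loci, the share was 88.6% (79.5 to 94.7%). All 5 p53 sites of untreated cells at these loci were listed again after IR, as were 95.6% of that whole list.

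**Figure D1:**
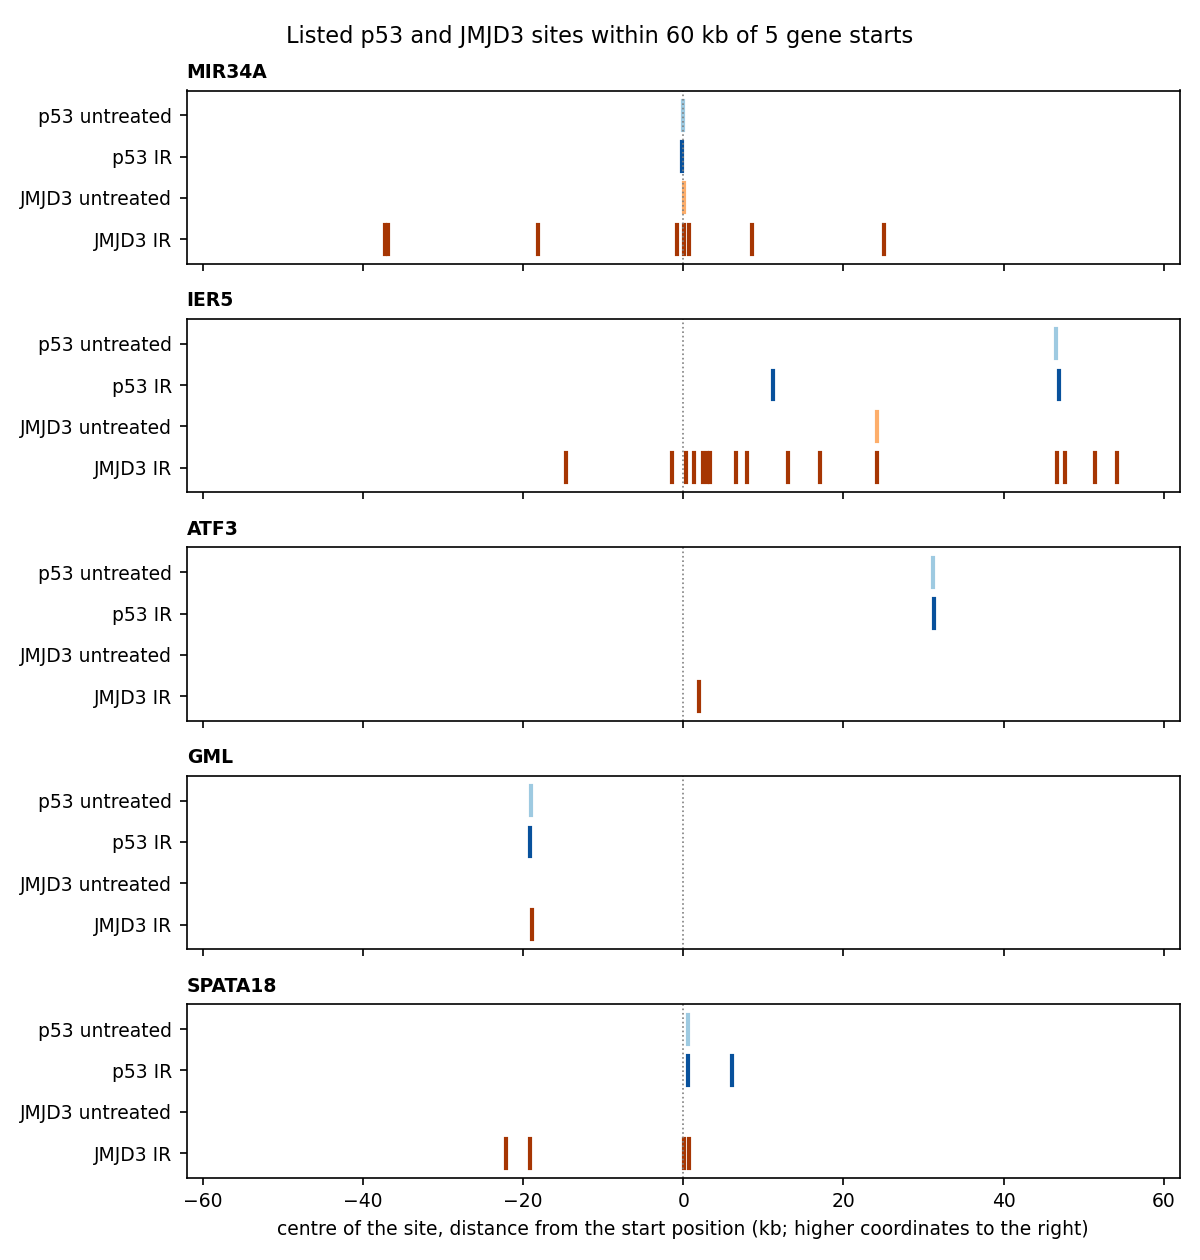
Centres of the listed sites, shown as ticks by their distance in kb from the start position (dotted line) in 5 panels, 1 per gene, with 1 row per list; tick width is not to scale. p53 ticks lie at the start in the MIR34A and SPATA18 panels and 19.1 to 46.9 kb away for the widest p53 site of GML, ATF3 and IER5, and the JMJD3 row after IR is the fullest at IER5, with 16 ticks.

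The name of far elements fits only some of these sites. At MIR34A the p53 site of irradiated cells, chr1:9164038-9165368, covered the start position itself, and at SPATA18 the widest p53 site, chr4:52612393-52613232, began 133 bp past the start. These are promoter sites under the limit of 5 kb used in the study. The other 5 of the 7 p53 sites after IR lay beyond 5 kb. The second SPATA18 site, chr4:52618150-52618531, was the closest of them, with its near edge 5.89 kb from the start.

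The widest p53 site at IER5, chr1:179370461-179371774, was centred 46.86 kb past the start, and a second site, chr1:179335221-179335734, 11.22 kb past it. At ATF3 the site chr1:210836288-210836960 was centred 31.32 kb past the start used here. The RefSeq promoter table used holds 2 ATF3 starts that lie 49.6 kb apart on GRCh38, and the distance from the second was not measured on hg18. The paper names an element upstream of ATF3, which counts from another start if it is this site, so the distance given here does not place the site downstream of every ATF3 promoter. The GML site, chr8:143893694-143894543, was centred at -19.1 kb, upstream of the gene. By order in RefSeq, the protein-coding genes next to these are MR1 and CACNA1E around IER5, NENF and GARIN4 around ATF3, LY6D and CYP11B1 around GML, SGCB and USP46 around SPATA18, and GPR157 and H6PD around MIR34A, so a site in these windows may lie nearer to a gene other than the 1 it is listed under.

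The limit of 60 kb cut through no group of p53 sites. The p53 site after IR farthest inside a window was 46.2 kb from its start, at IER5, and the nearest outside a window was 167 kb away, at MIR34A. For JMJD3 after IR the farthest inside was 54.1 kb away and the nearest outside 77.4 kb away, both at IER5.

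Each widest p53 site was wider in the list of irradiated cells than in that of untreated cells. At MIR34A the p53 site was 631 bp wide in untreated cells and 1331 bp in irradiated cells. At IER5 the widths were 676 and 1314 bp, and at ATF3 366 and 673 bp. GML had 404 bp before IR and 850 bp after it, and SPATA18 473 and 840 bp. The ratio of the widths after and before IR was thus 2.11 at MIR34A, 1.94 at IER5, 1.84 at ATF3, 2.10 at GML and 1.78 at SPATA18. Such a ratio was usual for p53. Over all 345 pairs of overlapping p53 sites the median was 1.84, with quartiles of 1.58 and 2.11, and all 345 pairs were wider after IR.

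In rank, the MIR34A and IER5 sites were number 2 and number 3 in width among the 3232 p53 sites after IR, which is how they were picked. GML was number 25, SPATA18 number 26 and ATF3 number 79. Before IR, where width did not enter the choice directly, IER5 was number 2 and MIR34A number 5 of 361, followed by SPATA18 at 16, GML at 35 and ATF3 at 74. All 5 were above the median width of that list, 295 bp. The sites that had no counterpart before IR were less wide after it, with 514 bp at the second IER5 site (rank 271) and 382 bp at the second SPATA18 site (rank 765), both still above the median of 288 bp.

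**Figure D2:**
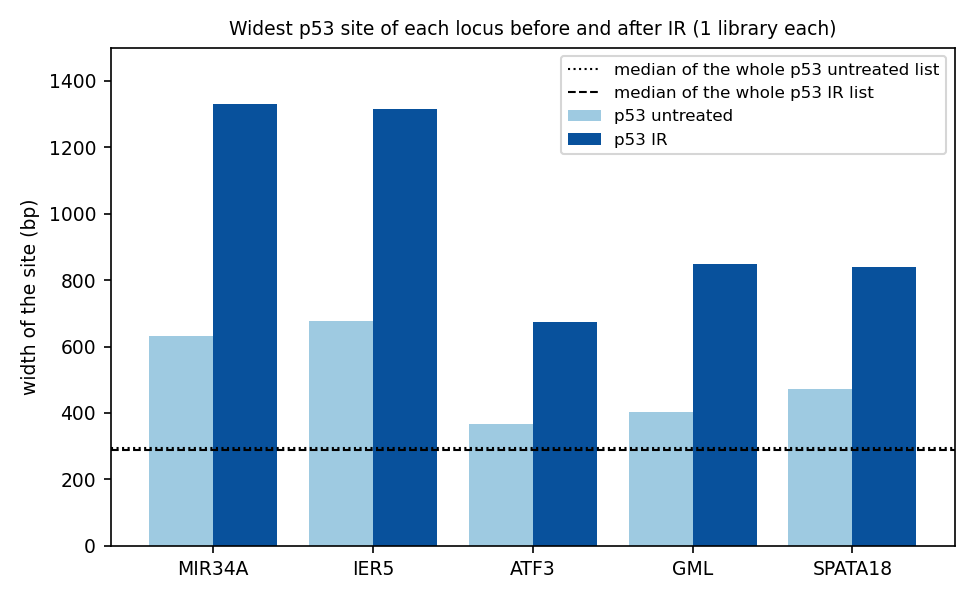
Width in bp of the widest p53 site at each of the 5 loci in untreated (light bars) and irradiated cells (dark bars), 1 library each, with the medians of the whole lists as lines (295 and 288 bp). All 10 bars lie above both medians, and the dark bar is the taller of the pair at each gene.

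The listed p53 site did not widen evenly on both sides. In all 5 pairs the site of untreated cells lay wholly within that of irradiated cells, as in 99.4% of the 345 pairs. At IER5 the site after IR reached 579 bp farther on the side of higher coordinates and 59 bp on the other. At GML it was the reverse, with 86 bp on the higher and 360 bp on the lower side. MIR34A also had the longer addition on the lower side, 498 bp against 202 bp, while ATF3 had 225 bp on the higher side against 82 bp. At SPATA18 the additions were closest, 221 bp on the lower and 146 bp on the higher side.

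JMJD3 was listed at 2 of the 5 loci in untreated cells and at all 5 in irradiated cells. Over the tiles of 120 kb, 10.1% hold a JMJD3 site of untreated cells and 41.7% one of irradiated cells. Before IR there was 1 JMJD3 site each at MIR34A and IER5 and none at ATF3, GML and SPATA18. After IR there were 8 at MIR34A, 16 at IER5, 4 at SPATA18 and 1 each at ATF3 and GML. The sequence covered by JMJD3 after IR was 3916 bp at IER5, 2112 bp at MIR34A, 1073 bp at SPATA18, 276 bp at GML and 132 bp at ATF3. The JMJD3 list of untreated cells holds no site under 200 bp and that of irradiated cells goes down to 125 bp, so both conditions share a limit only from 200 bp on. With JMJD3 sites of at least 200 bp in both lists, the untreated numbers were the same, and after IR there were 9 at IER5, 4 at MIR34A, 2 at SPATA18, 1 at GML and 0 at ATF3, 16 sites in all at 4 loci. With either limit IER5 and MIR34A had more JMJD3 sites than ATF3 and GML.

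**Figure D3:**
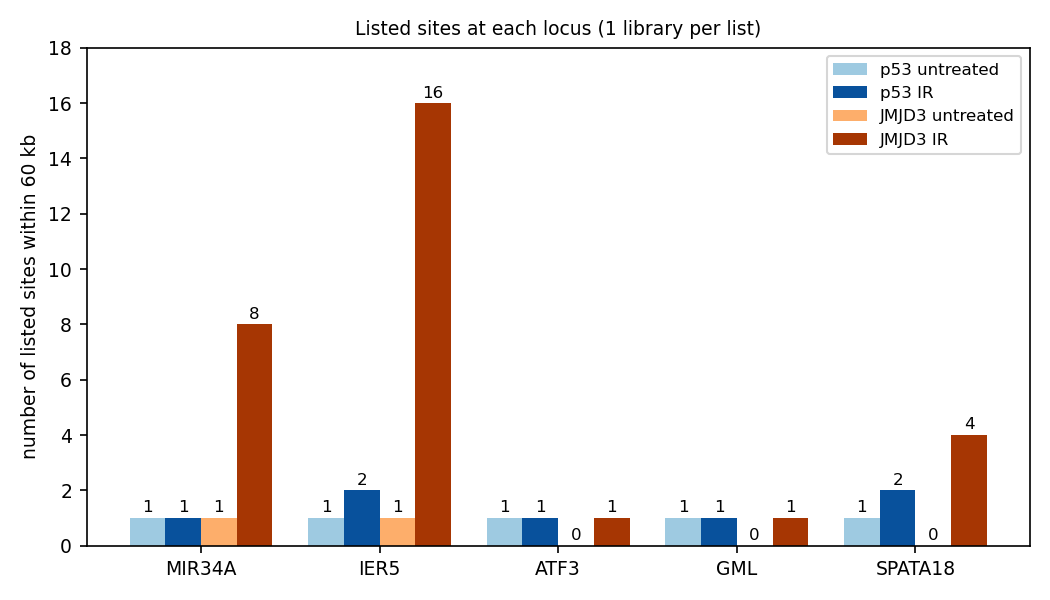
Number of listed sites within 60 kb of each gene start, with 1 bar per list and 1 library per list. The JMJD3 bars of irradiated cells reach 16 at IER5 and 8 at MIR34A and stay at 1 at ATF3 and GML, while no p53 bar is above 2. With sites of at least 200 bp those JMJD3 bars would reach 9, 4, 1 (GML) and 0 (ATF3).

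Loci with p53 differ widely in their JMJD3 number. The 2854 tiles that hold a p53 site after IR had a median of 2 JMJD3 sites after IR, with quartiles of 0 and 4 and a highest number of 49. At least 16 JMJD3 sites, the number at IER5, were found in 2.35% of these tiles, at least 8 in 10.2%, at least 4 in 28.8% and at least 1 in 74.5%. Tiles were laid without regard to genes, whereas the windows are centred on gene starts, so the percentages place the loci among stretches of the same length and are not a test.

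**Figure D4:**
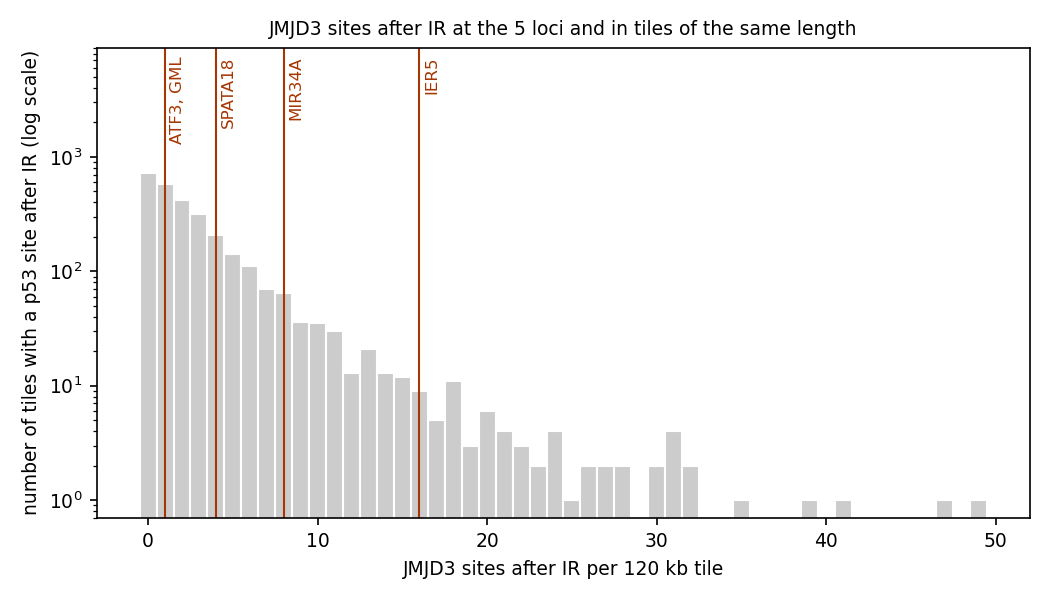
Histogram of the number of JMJD3 sites after IR in the 2854 tiles of 120 kb that hold a p53 site after IR, with the number of tiles on a log axis, and vertical lines at the numbers of the 5 loci. ATF3 and GML, at 1, lie below the median of 2, and IER5, at 16, lies in the thin upper tail.

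At 4 of the 5 widest p53 sites a JMJD3 site was listed on the p53 site after IR, and at ATF3 none was. Counted over all 7 p53 sites after IR it was 4, against 21.2% of all p53 sites (exact 95% interval 19.8 to 22.7%). The choice of loci bears on this count, and it was 2 of 7 when 50% of the p53 site had to be covered or its centre had to lie in the JMJD3 site. Shares over all p53 sites were taken by the shared 1 bp only, so 2 of 7 has no matching share and cannot be set against 21.2%. For the 4 of the 5 widest sites, all at least 673 bp wide, sites of like width are the closer comparison. Among the 79 p53 sites of at least 673 bp 57.0% overlapped a JMJD3 site after IR (45.3 to 68.1%), among the 343 already listed before IR 32.7% did (27.7 to 37.9%), and among those listed after IR only 19.9% did (18.4 to 21.4%). Before IR only the MIR34A site of the 7 overlapped a JMJD3 site of untreated cells, against 2.63% of all p53 sites and 3.8% of the 79 wide ones.

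At MIR34A, JMJD3 was listed on the p53 site in both conditions. The JMJD3 site of untreated cells, chr1:9164870-9165073, was 204 bp wide, began 20 bp from the start position and lay wholly within the p53 site. After IR the site around it, chr1:9164535-9165260, was 726 bp wide, which places it at number 597 of 35133 in width. A further JMJD3 site, chr1:9163948-9164265, overlapped the lower end of the p53 site by 228 bp, and another, chr1:9165439-9165584, lay 70 bp past its upper end. Overlap with at least 2 JMJD3 sites after IR is seen at 0.743% of all p53 sites after IR and at 16.5% (9.06 to 26.5%) of the 79 of at least 673 bp, the closer comparison for a site chosen by its width. The 2 overlapping sites covered 71.7% of the p53 site, against a median of 57.5% over the 686 p53 sites with a JMJD3 site. Those 686 are of any width, and sites of like width were not set apart. At the widest p53 sites of the other loci the share was 63.1% at SPATA18, 32.5% at GML, 15.1% at IER5 and 0% at ATF3. All 4 lists meet at this p53 site, as they do at 3 (0.0928%) of the 3232 sites of any width. The share among the 79 wide sites was not counted. It can be no higher than the 3.8% of them that overlapped a JMJD3 site of untreated cells. At MIR34A the meeting of the 4 lists rests on the JMJD3 site of untreated cells, which covers 15.3% of the p53 site. No such overlap was left when 50% of the p53 site had to be covered, when its centre had to lie in the JMJD3 site, or with the wider 50% of each list.

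At SPATA18, JMJD3 was listed at the start after IR and nowhere in the window before it. The nearest JMJD3 site of untreated cells was 1640 kb from the p53 site. After IR a JMJD3 site of 578 bp, chr4:52612707-52613284, overlapped the p53 site by 526 bp, and a narrow one of 163 bp, chr4:52612234-52612396, covered the start position. The narrow site touched the p53 site by only 4 bp, so the count of 2 JMJD3 sites on it rests on this edge. No JMJD3 site overlapped the second p53 site of SPATA18, and the nearest after IR was 4.87 kb away.

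At GML the single JMJD3 site of the window lay on the distal p53 site. It was listed after IR at chr8:143894190-143894465, was 276 bp wide and lay wholly within the p53 site, of which it covered 32.5%. In untreated cells the nearest JMJD3 site was 133 kb from the p53 site. No p53 or JMJD3 site of any list was within 5 kb of the GML start. The p53 site also stood alone among p53 sites, with the next p53 site after IR 1070 kb away, against a median of 193 kb over all p53 sites.

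At IER5 most of the JMJD3 sites were away from p53. Of the 16 sites after IR, 1 overlapped a p53 site, the 199 bp site chr1:179370771-179370969 within the widest p53 site, of which it covered 15.1%. A site of 178 bp followed 40 bp past the upper end of that p53 site. The main group lay at the start instead, where 6 JMJD3 sites within 5 kb covered 1763 bp, the widest of them 432 bp wide and beginning 111 bp past the start position. No p53 site was listed in that stretch in either condition. The p53 site at 11.22 kb lay between JMJD3 sites without touching one, the nearest being 1.59 kb away.

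The JMJD3 site of untreated cells at IER5 was a separate one, chr1:179348322-179348570, centred 24.19 kb past the start. It was listed again after IR, at 293 bp in place of 249 bp, and the nearest p53 site of either condition was 12.6 kb from it. With the MIR34A site, both of the JMJD3 sites of untreated cells at these loci were thus listed again, as were 86.8% of all JMJD3 sites of untreated cells. Conversely, 2 of the 30 JMJD3 sites after IR had a counterpart before IR, against 11.9% of all.

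At ATF3 the lists hold no JMJD3 site on the p53 site. The p53 site was listed before and after IR, and a gap of 28.9 kb after IR and of 367 kb before IR separated it from the closest JMJD3 site. The JMJD3 site of the window, chr1:210807237-210807368, was 132 bp wide and began 1.94 kb past the start position used here. The lists carry no heights, so this covers listed sites only and does not show that JMJD3 was absent from the element. The paper also measured JMJD3 by PCR of immunoprecipitated chromatin at an element upstream of ATF3, which may be this site. That measurement is not part of the lists used here.

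Across the 5 loci the JMJD3 sites after IR were mostly not on p53. Of the 30, 6 overlapped a p53 site after IR, against 2.02% of all 35133 JMJD3 sites after IR, a contrast that the choice of loci by p53 bears on. Of the other 24, 2 lay within 0.07 kb of a p53 site and the rest 1.59 to 36.3 kb away. The JMJD3 list after IR holds many narrow sites that the other lists do not, and 14 of the 30 (46.7%) were under 200 bp, against 56.0% of that whole list. Those under 200 bp included the site on the IER5 p53 element, the ATF3 site and the site over the SPATA18 start. Without them 16 JMJD3 sites remained at 4 loci, and 3 of the 7 p53 sites overlapped 1. No share over all p53 sites after IR was taken with that limit.

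Within the p53 sites JMJD3 was off centre. Taking the widest JMJD3 site on each, its centre lay 194.5 bp above the centre of the p53 site after IR at MIR34A, 209 bp above at GML and 183 bp above at SPATA18, and at -247.5 bp at IER5. The p53 site of untreated cells was shifted to the same side in each case, by 148 bp at MIR34A, 137 bp at GML, 37.5 bp at SPATA18 and -260 bp at IER5. The JMJD3 centre was therefore nearer to the p53 centre before IR than after IR at all 4, with distances of 12.5 bp at IER5, 46.5 bp at MIR34A, 72.0 bp at GML and 145.5 bp at SPATA18. This comparison was made after the values were seen. Over all 112 p53 sites after IR that carried p53 before IR and JMJD3 after IR, 58.0% had the JMJD3 and untreated p53 centres on the same side. JMJD3 was nearer to the untreated p53 centre at 56.2% of them (exact 95% interval 46.6 to 65.6%). The median distances were 79.0 bp to the p53 centre before IR and 93.25 bp to that after IR. The 112 are of any width whereas the 4 are 840 to 1331 bp wide, so the distances are not compared at like width. The order at the 4 loci is thus not shown to be general.

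**Figure D5:**
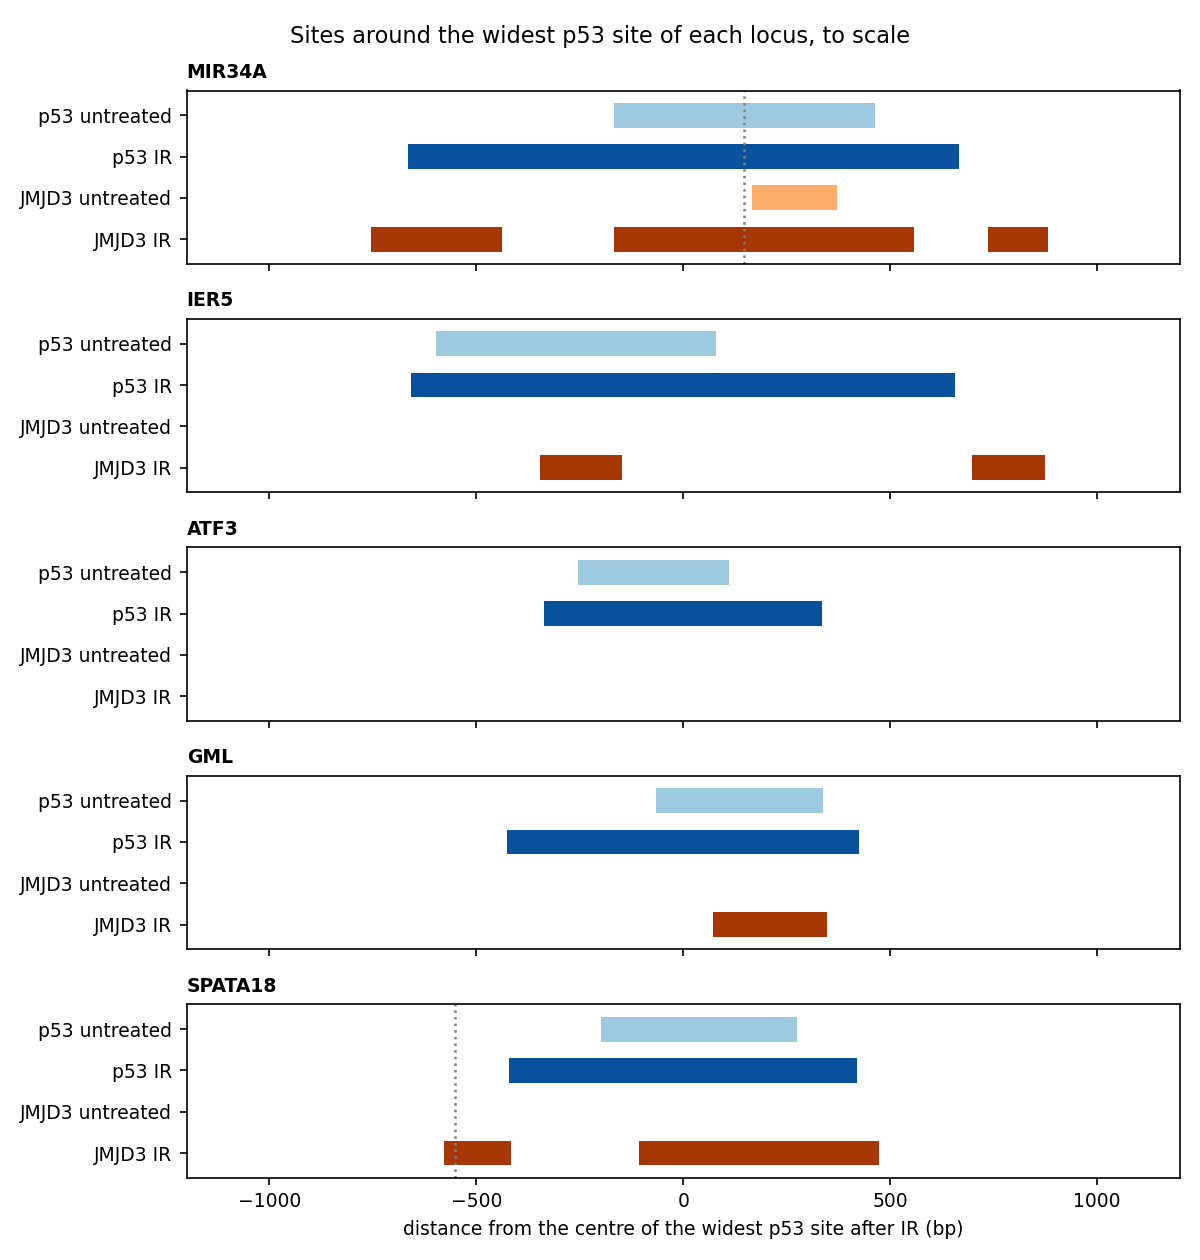
Listed sites drawn to scale around the centre of the widest p53 site after IR of each locus, in bp, with 1 row per list and a dotted line at the start position where it is in range. The p53 bar of untreated cells lies within that of irradiated cells in all 5 panels, and a JMJD3 bar after IR overlaps it at MIR34A, IER5, GML and SPATA18 and not at ATF3.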

How the data were processed

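ChIP-seq of p53 and JMJD3 was carried out in untreated and irradiated BJ cells, with 1 library per group. The authors aligned tags to hg18 with Bowtie version 0.12.7, keeping unique alignments, and used MACS version 2 for peak detection in each library, with IgG reads as control. The threshold is not given in the sources used here. The labels list a rabbit IgG library of untreated cells, which was not analysed here. The deposited files hold 3 columns, chromosome, start and end in bp, with no counts, scores or p-values, so depth is unknown. Positions are printed counting from 1.

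A site belonged to a locus when at least 1 bp lay within 60 kb of the start position. Sites overlapped when they shared at least 1 bp. Width stands in for the missing score. Tiles of 120 kb ran from each chromosome's first base to its last listed site, and unmappable sequence was not masked. Intervals are exact (Clopper-Pearson) 95% binomial intervals and cover counting error only. The counting of overlaps and of sites in windows was checked on planted sites, which checks the code and is not a test of the results. Python 3.11.15, numpy 2.4.6, scipy 1.17.1 and matplotlib 3.10.9 were used. RefSeq tables of GRCh38.p14 gave sequences, neighbouring genes, strands and, within that build, the distances between RefSeq starts and to the MIR34A hairpin. Every site of p53 at the 5 genes is named, with the JMJD3 sites that the results turn on. No wider list of p53 target genes was used, as hg18 starts were given for these 5 alone. The members and lists were chosen with earlier results of these data known. Alternatives were other windows, overlap rules, widths, promoter distances and merging within 1 kb.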

Additional observations from a re-analysis of the deposited data

How the results depend on the processing

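Of 70 comparisons of a result with an alternative, 57 stayed within 1.5 times and 13 moved by more, all 13 to lower counts. Counts and widths have no sign, so a change of direction could not arise and was not assessed. With a window of 30 kb, 3 p53 sites of untreated cells at 3 loci remained, and 3 of 5 p53 sites after IR overlapped p53 of untreated cells, since the ATF3 element and the widest IER5 element then lie outside by construction. A window of 100 kb added no p53 site and gave 37 JMJD3 sites after IR. When 50% of the p53 site had to be covered, 2 of 7 overlapped JMJD3 after IR, 0 JMJD3 before IR and 3 p53 before IR. When the other site had to contain its centre, the numbers were 2 for JMJD3 after IR and 0 for JMJD3 before IR. With sites of at least 200 bp, 16 JMJD3 sites after IR were left, and with the wider 50% of each list 17. The latter left 0 JMJD3 sites of untreated cells, at 0 loci and on 0 p53 sites. These lower counts follow from stricter rules. No paired analysis was possible because a single library stands for each antibody and exposure. Unknown depth limits every comparison before and after IR.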
